A study of Mus musculus with 3 samples.

Results

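The Fcγ receptors bind the constant part of IgG and let a macrophage take up or respond to antibody-coated particles. The mouse has the activating receptors encoded by Fcgr1 (high affinity), Fcgr3 and Fcgr4, which signal through the ITAM of the common γ chain encoded by Fcer1g, and the inhibitory receptor encoded by Fcgr2b, which carries an ITIM in its own tail. The balance of activating and inhibitory receptors is known to set how macrophages answer immune complexes. These 5 genes, of 22350 protein-coding genes of GENCODE M1 on chromosomes 1 to 19 and X, were chosen by name, as the Fcγ receptors and their signalling chain, and all 5 were found under these symbols.

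The data are ChIP-Seq tags, short reads from chromatin fragments recovered with an antibody, here against Pol_II phosphorylated at Ser5 of its carboxy-terminal domain. There were 3 libraries. One Ser5 library came from untreated cells, the other from cells given 10 ng/ml LPS (lipopolysaccharide of Gram-negative bacteria, which activates macrophages) during 2 h, and an input library of untreated cells, made without the antibody, served as background for both. All came from primary macrophages of female Fvb mice (Fvb/Hsd in the methods), grown from bone marrow in L929-conditioned medium to the seventh day of differentiation. The libraries held 7616771, 6249819 and 7533308 aligned tags on the chromosomes used. With 1 library per condition, the spread between cultures could not be measured, so no test was made, and every interval given is a 95% interval for counting error only. Levels are given in TPM, tags scaled to a library of 1000000, divided by length in kb where genes are compared, and a ratio is the LPS level over the untreated level. Genes are called higher or lower when they differed at least 2 times between the Ser5 libraries and these together gave 10 or more tags. By this rule 5.82% of the coding genes tested were higher and 11.2% lower over the gene body, and the median ratio over these genes was 0.873.

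The macrophage identity of the cells was visible in the Ser5 tags. All 10 macrophage markers exceeded the input in untreated cells and 8 did so after LPS, with gene body densities of 1.16 to 105 TPM per kb in untreated cells. The 22 markers of 8 other cell types lay between 0 and 2.07 in untreated cells and had no Ser5 peak around any transcription start site (TSS). The eosinophil marker Prg2 had 0 tags in untreated cells, 5 after LPS and 9 in the input. The erythroid marker Hbb-b1 had 0, 0 and 1, so that its lack of Ser5 tags says little. The densities of the 22 markers summed to 5.41 in untreated cells and 4.33 after LPS, against 11.9 in the input. The macrophage markers summed to 270.2, 287 and 11.8. A B-cell and a neutrophil marker stood above the input in untreated cells, Cd79a at 0.927 and Prtn3 at 2.07, and of these Cd79a remained above it after LPS.

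Of the 5 genes 4 lie on chromosome 1 (mm9). Fcgr2b (ENSMUSG00000026656.9, minus strand, chr1:172890689-172906678), Fcgr4 (ENSMUSG00000059089.4, plus strand, chr1:172949051-172959892) and Fcgr3 (ENSMUSG00000059498.6, minus strand, chr1:172981300-172995066) form one cluster, and Fcer1g (ENSMUSG00000058715.6, minus strand, chr1:173159703-173164496) lies beyond Fcgr3. Fcgr1 (ENSMUSG00000015947.5, minus strand, chr3:96086832-96098179) stands apart on chromosome 3. The gene records of Fcgr1, Fcgr2b and Fcgr3 begin 287, 420 and 5532 bp upstream of the TSS of their consensus coding (CCDS) transcripts. For Fcgr3 this decides what can be measured. The window of 1000 bp on each side of the record's start held 0, 1 and 0 tags in untreated cells, after LPS and in the input. Since the input held none there either, these counts cannot show whether Pol_II lay at the record's start. The window around the CCDS TSS held 130, 43 and 17.

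The proximal promoters are shown because, in 250-bp bins along each gene, the bin with the most Ser5 tags after LPS began at the CCDS TSS in 4 of the 5 genes, all but Fcgr4. Each is the 150 bases before that TSS in the mm9 genome, written 5′ to 3′ along the gene, and the window of Fcgr2b is left out because it overlaps an annotated exon. Capitals mark matches to 4 letter patterns searched on both strands. GAGGAA is a longer form of the GGAA core of sites bound by ETS factors, such as PU.1 of macrophages. The others are the GAS pattern TTCNNNGAA (the interferon-γ-activated sequence), the ISRE pattern GAAANNGAAA (the interferon-stimulated response element) and the NF-kB pattern GGGNNNTTCC.
Fcgr1, chr3:96097893-96098042, minus strand: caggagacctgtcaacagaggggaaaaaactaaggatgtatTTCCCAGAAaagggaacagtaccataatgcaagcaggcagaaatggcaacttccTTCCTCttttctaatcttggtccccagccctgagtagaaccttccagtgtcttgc
Fcgr3, chr1:172989535-172989684, minus strand: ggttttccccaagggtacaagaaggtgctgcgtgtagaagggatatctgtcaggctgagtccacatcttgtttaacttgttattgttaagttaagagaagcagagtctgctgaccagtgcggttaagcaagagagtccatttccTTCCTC
Fcgr4, chr1:172948901-172949050, plus strand: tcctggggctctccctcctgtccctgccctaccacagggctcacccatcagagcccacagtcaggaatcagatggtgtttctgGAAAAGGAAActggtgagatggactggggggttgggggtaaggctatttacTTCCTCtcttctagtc
Fcer1g, chr1:173164497-173164646, minus strand: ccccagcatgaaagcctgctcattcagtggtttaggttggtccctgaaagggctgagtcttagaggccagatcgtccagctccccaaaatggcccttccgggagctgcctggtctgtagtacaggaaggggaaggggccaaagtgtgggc

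All 3 activating receptor windows held GAGGAA, read as TTCCTC on the gene's strand, 55 to 50 bases before the TSS in Fcgr1, 6 to 1 in Fcgr3 and 16 to 11 in Fcgr4. Fcgr1 held a GAS match, TTCCCAGAA, 109 to 101 bases before the TSS. Fcgr4 held an ISRE match, GAAAAGGAAA, 67 to 58 bases before it. None of the searched patterns was found in the windows of Fcer1g and Fcgr2b. The shorter GGAA was not searched for and does occur in the printed window of Fcer1g. Over 19456 promoter windows of the same length, 14.1% held GAGGAA, 3.84% GAS, 1.77% ISRE and 3.06% the NF-kB pattern. A match is a match of letters only.

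The 5 genes did not move together. Before treatment Fcer1g had the highest Ser5 density over its body, followed by Fcgr1, Fcgr3, Fcgr2b and Fcgr4, and the ratio of every gene to the next in this order had an interval above 1, from 2.14 (1.47 to 3.19) for Fcgr2b over Fcgr4 to 2.83 (2.27 to 3.54) for Fcgr3 over Fcgr2b. After LPS the order was Fcer1g, Fcgr1, Fcgr2b, Fcgr3 and Fcgr4. Fcgr2b then stood 2.21 times (1.69 to 2.92) above Fcgr3, so these genes had changed places, while Fcgr3 over Fcgr4 had a ratio of 1.06 (0.746 to 1.53). The gene record of Fcgr3 includes the stretch upstream of its CCDS TSS. The record held 285, 77 and 71 tags in untreated cells, after LPS and in the input, against 255, 67 and 40 over the CCDS span. The upstream stretch thus added few Ser5 tags but a large part of the input tags. Over the spans of the CCDS transcripts the order was the same, and after LPS Fcgr2b stood 1.51 times (1.14 to 2.03) above Fcgr3 and Fcgr3 1.55 times (1.07 to 2.24) above Fcgr4, so that the last pair also differed beyond counting error. By the rule of size 1 gene, Fcgr2b, was higher over the gene body and 1 gene, Fcgr3, was lower. Fcer1g, at 1.999, fell just short of the limit. In these bulk libraries a change in the share of cells and a change in Pol_II per cell cannot be told apart.

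**Figure D1:**
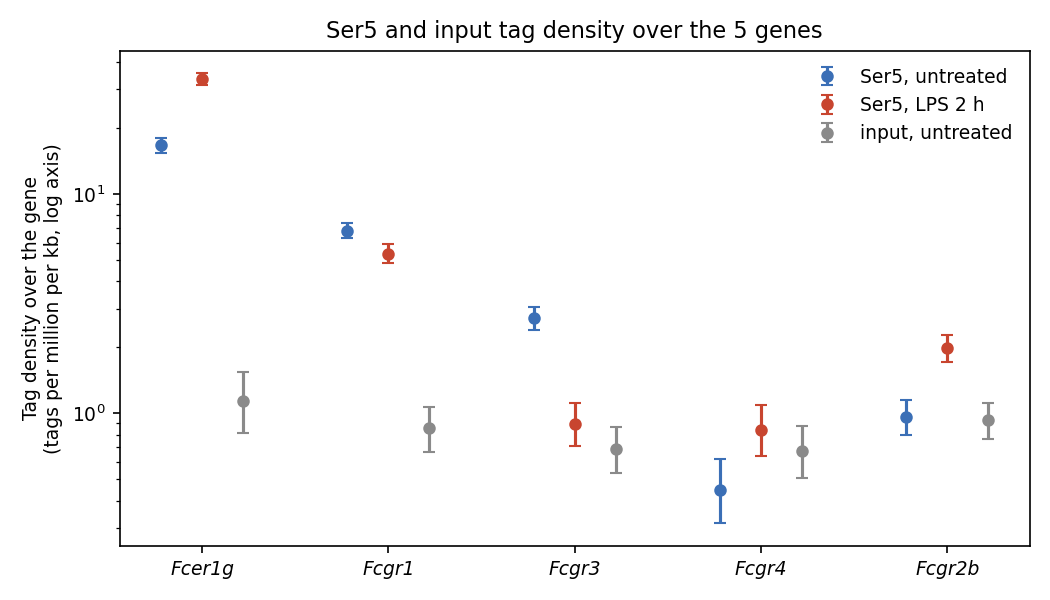
Gene body tag density of the 5 genes (TPM per kb, log axis) in the Ser5 libraries of untreated and LPS-treated cells and in the input; points are single libraries and bars 95% Poisson intervals for counting error. Fcer1g rises from 16.7 to 33.4, Fcgr3 falls from 2.72 to 0.895, with an input of 0.685, and Fcgr4 goes from 0.448 to 0.841, with an input of 0.673.

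The common γ chain gene Fcer1g carried the most Ser5-phosphorylated Pol_II of the group. Its body held 611 tags in untreated cells, 1002 after LPS and 41 in the input, or 16.7, 33.4 and 1.14 TPM per kb. These Ser5 densities were above those of 98.4% of the coding genes in untreated cells and 99.4% after LPS. The ratio came to 1.999 (1.81 to 2.21). The gene is short, and in untreated cells 4 Ser5 peaks together covered 84.5% of it, whereas after LPS 2 peaks covered 94.8%. In both lists the peak over its TSS had the highest score given, 3100 (minus 10 times the log10 of the authors' peak p).

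On Fcer1g the ratio grew with distance from the promoter. It was 1.07 (0.821 to 1.40) in the 1000 bp upstream, on 124 untreated and 109 LPS tags. It was 1.76 (1.5 to 2.08) in the first 1000 bp of the gene, with 255 and 369 tags. It was 2.84 (2.31 to 3.49) beyond the midpoint of the gene, with 135 and 314 tags. The intervals of these 3 regions do not overlap. The upstream region also takes in the 3′ end of another coding gene on the same strand, whose tags cannot be separated from those of Fcer1g. The part beyond the midpoint of Fcer1g held 22.1% (19 to 25.6) of its tags in untreated cells and 31.3% (28.5 to 34.3) after LPS. Over the 3000 bp beyond the 3′ end, 179 and 248 tags gave a ratio of 1.69 (1.39 to 2.06). That flank ends close to the 3′ end of Apoa2, which runs towards Fcer1g on the other strand and had a gene body ratio of 1.63 (1.29 to 2.06), and tags without strand of transcription cannot be assigned to one of them.

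Fcgr1, the high-affinity receptor for IgG, was the most loaded of the receptor genes. Untreated cells gave 589 tags over its body, LPS-treated cells 380 and the input 73, or 6.81, 5.36 and 0.854 TPM per kb, and the ratio was 0.786 (0.689 to 0.896). This lay near the median of all genes, with 39.1% of the coding genes below it. The gene had 9 Ser5 peaks in untreated cells and 8 after LPS.

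Along Fcgr1 the ratio varied. In the first 250 bp after the CCDS TSS the density was 28.4 TPM per kb in untreated cells and 33.3 after LPS. In the next 250 bp it was 30.5 and 10.9. The same split appeared in the peaks called in untreated cells, which are described here without a test because that library chose them. The peak over the TSS (chr3:96097696-96098042) held 84 and 66 tags, a ratio of 0.958 (0.683 to 1.34), and the next peak inside the gene (chr3:96097137-96097632) held 91 and 29 tags, a ratio of 0.388 (0.246 to 0.596). Around the start of the gene record, 1000 bp on each side held 171 and 96 tags, a ratio of 0.684 (0.527 to 0.884), and with 500 bp on each side the ratio was 0.989 (0.709 to 1.38). Past the 3′ end the tags nearly disappeared after LPS. The 3000 bp flank held 57 tags in untreated cells, 8 after LPS and 10 in the input, a ratio of 0.171 (0.0705 to 0.360), and the interval lies below those of the gene before its midpoint (0.929, 0.770 to 1.12) and after it (0.676, 0.555 to 0.821). The flank ends close to the 3′ end of Hist2h2bb, which runs towards Fcgr1 on the other strand. Hist2h2bb had a gene body ratio of 0.542 (0.505 to 0.582), and tags without strand of transcription cannot be assigned to one of the genes.

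Fcgr3, the low-affinity activating receptor, had the lowest gene body ratio of the 5 genes. Its body held 285 tags in untreated cells, 77 after LPS and 71 in the input, or 2.72, 0.895 and 0.685 TPM per kb. The ratio was 0.329 (0.253 to 0.425), below that of all but 3.35% of the coding genes. Its excess over the input went from 3.97 times (3.05 to 5.22) to 1.31 times (0.934 to 1.83). Over the CCDS span, where its density went from 4.07 to 1.30 TPM per kb, it went from 6.31 times (4.5 to 9.03) to 2.02 times (1.34 to 3.07), and with libraries scaled by the tags outside the Ser5 peaks the level after LPS was 2.67 times the input (1.91 to 3.75), above it in both cases. Of 6 Ser5 peaks in untreated cells, 4 of them with a score of at least 100, 3 peaks were called after LPS and none reached that score.

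The lower level on Fcgr3 ran from the promoter to past the end of the gene. The CCDS TSS window held 130 and 43 tags, a ratio of 0.403 (0.279 to 0.573). The first 1000 bp of the CCDS transcript had 108 and 39 tags (0.440, 0.297 to 0.640), and the part beyond its midpoint had 66 and 12 (0.222, 0.109 to 0.413). The first 1000 bp held 42.4% (36.4 to 48.5) of the transcript's tags in untreated cells and 58.2% (46.3 to 69.3) after LPS, intervals that overlap. In the 3′ flank there were 129 tags in untreated cells and 15 each after LPS and in the input, a ratio of 0.142 (0.0771 to 0.243).

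Fcgr2b, the only inhibitory receptor of the group, was higher over its body after LPS. The body held 117 tags in untreated cells, 198 after LPS and 112 in the input, or 0.961, 1.98 and 0.93 TPM per kb. The ratio came to 2.06 (1.63 to 2.61), above that of 94.5% of the coding genes. In untreated cells the body was at 1.03 times the input (0.790 to 1.35) and after LPS at 2.13 times (1.68 to 2.71). Scaled by the tags outside the Ser5 peaks, the untreated value was 1.96 (1.5 to 2.57), above the input. The single Ser5 peak of each list lay over the CCDS TSS, with scores of 215 in untreated cells and 228 after LPS.

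At the promoter of Fcgr2b the ratio depended on the window and the scaling. The window around the start of its record held 47 tags in untreated cells, 55 after LPS and 9 in the input, a ratio of 1.43 (0.949 to 2.15), with an interval that includes 1. With 2000 bp on each side it was 1.74 (1.2 to 2.55), and scaled by the tags outside the Ser5 peaks it was 1.53 (1.02 to 2.32). These intervals overlap that of the gene body, which shares tags with these windows, and a difference between promoter and body was not tested. From 1000 bp to the end of the transcript, 74, 155 and 104 tags gave a ratio of 2.55 (1.92 to 3.42). The first 1000 bp held 31.5% (23.5 to 40.7) of the transcript's tags in untreated cells, 19.3% (14.3 to 25.4) after LPS and 4.59% (1.98 to 10.3) in the input. Its 3′ flank held 16, 41 and 8 tags, a ratio of 3.12 (1.71 to 5.96).

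Fcgr4, an activating receptor that binds IgG2a and IgG2b, had few Ser5 tags in untreated cells. Its body held 37 tags in untreated cells, 57 after LPS and 55 in the input, or 0.448, 0.841 and 0.673 TPM per kb. The Ser5 libraries stood at 0.665 times (0.426 to 1.03) and 1.25 times (0.847 to 1.84) the input, neither beyond counting error. Scaled by the tags outside the Ser5 peaks the value after LPS was 2.56 (1.73 to 3.77), above the input. The ratio came to 1.88 (1.22 to 2.92). The TSS window held 21, 61 and 23 tags, a ratio of 3.54 (2.13 to 6.12), above that of 97.9% of the coding genes, with an interval that overlaps that of the body. With 500 bp on each side it was 2.53 (1.26 to 5.34). The upstream 1000 bp of this window had 9, 37 and 9 tags (5.01, 2.38 to 11.8), and the first 1000 bp of the gene had 12, 24 and 14 (2.44, 1.17 to 5.35). From 1000 bp to the end of the gene 25, 33 and 41 tags gave 1.61 (0.928 to 2.82), so that a change there was not detectable at this depth. No Ser5 peak was called in the gene in untreated cells. The single peak after LPS lay across the TSS (chr1:172948825-172949170) with a score of 62.9, close to the authors' limit of p 1e-05.

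**Figure D2:**
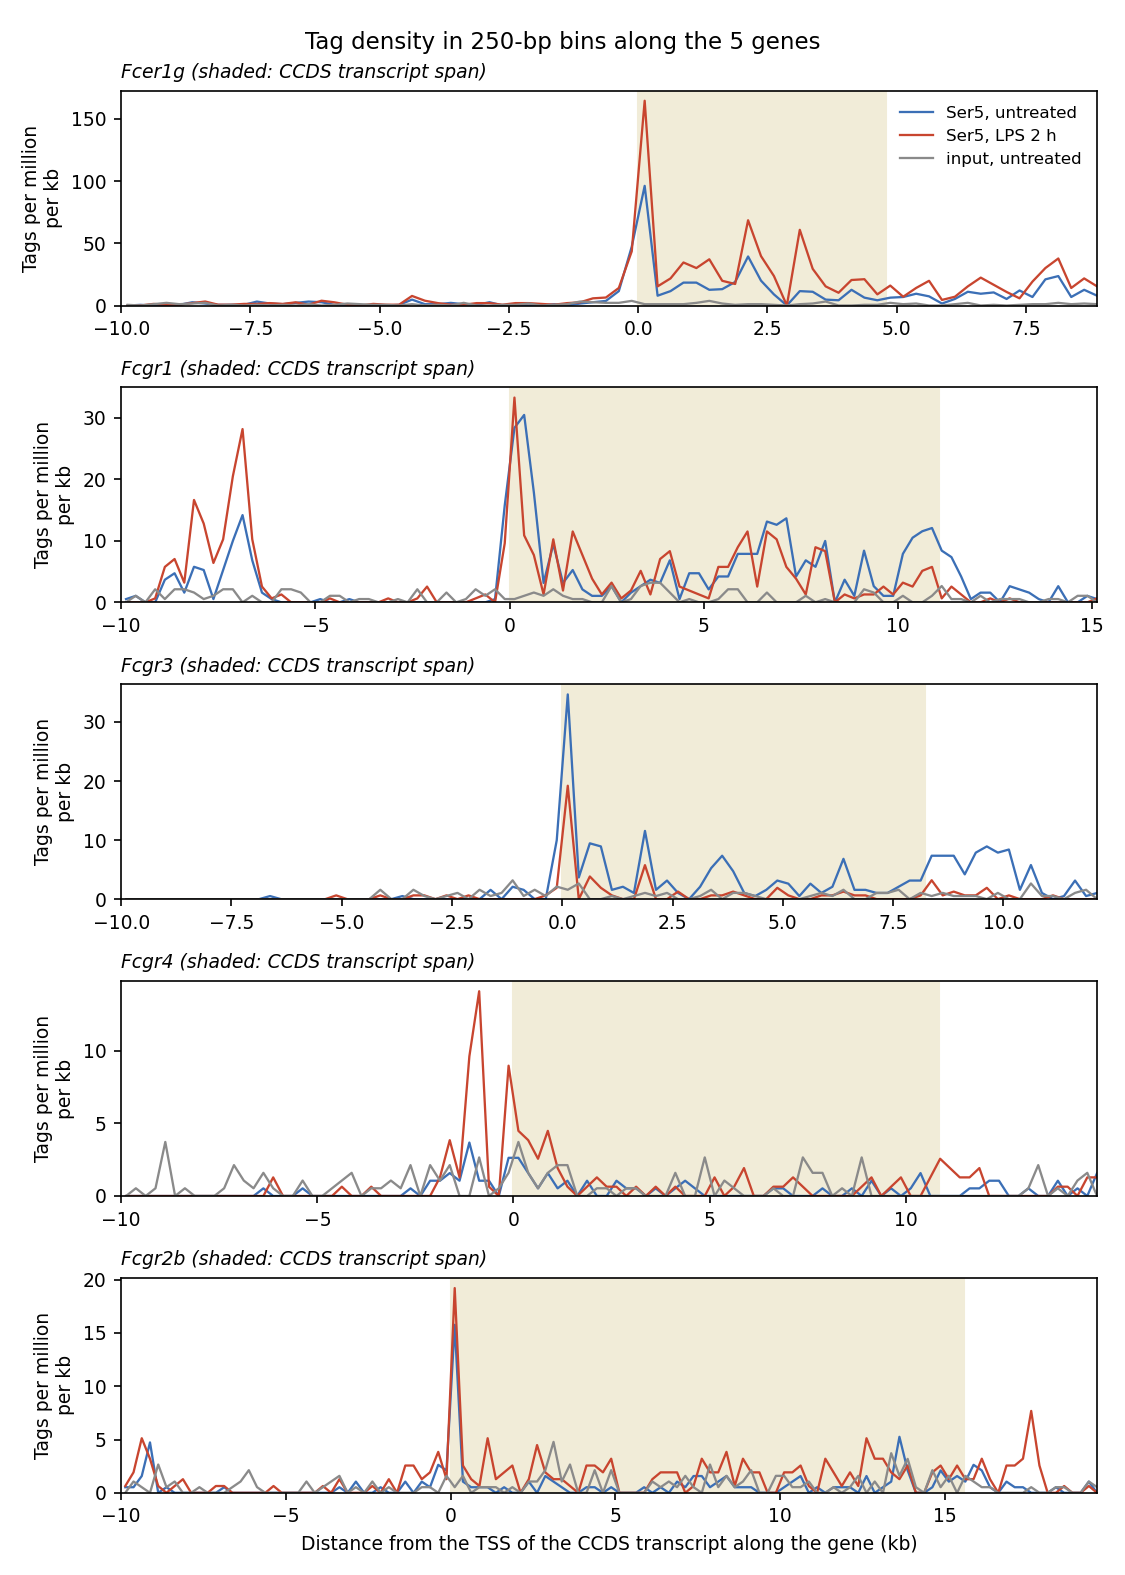
Tag density in 250-bp bins (TPM per kb) by distance from the CCDS TSS along each gene, for the Ser5 libraries of untreated and LPS-treated cells and the input, with the CCDS transcript span shaded. After LPS the line is above that of untreated cells along Fcer1g, below it along Fcgr3, and about 7 kb upstream of Fcgr1 and 1 kb upstream of Fcgr4 it rises well above it.

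Read by part of the gene, the members' calls compare with all coding genes as follows. At the TSS 5.61% of the coding genes tested were higher and 14.1% lower after LPS, and the median ratio was 0.831. Fcgr4 was the 1 member higher there, Fcgr3 was lower when its CCDS TSS was used, and the record window of Fcgr3 had too few tags to be tested. In the 3′ flank 8.22% of the coding genes tested were higher and 24% lower, with a median ratio of 0.770. There Fcgr2b was higher, and Fcgr1 and Fcgr3 were lower. The activating chain Fcer1g and the inhibitory receptor Fcgr2b had gene body ratios of 1.999 and 2.06, and the activating receptors were split, with Fcgr3 and Fcgr1 at 0.329 and 0.786 and Fcgr4 at 1.88.

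**Figure D3:**
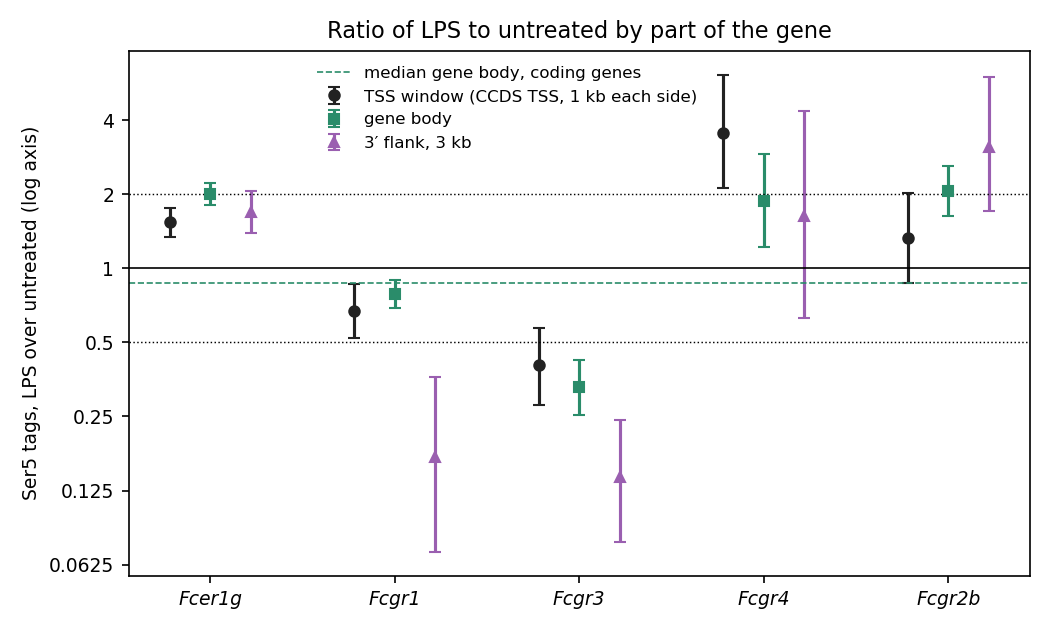
Ratio of LPS to untreated Ser5 tags (log axis) for each gene in the CCDS TSS window, the gene body and the 3 kb beyond the gene, with 95% intervals for counting error; dotted lines mark ratios of 0.5 and 2 and the dashed line the median gene body ratio of coding genes, 0.873. The body of Fcer1g sits at 1.999 and the 3′ flanks of Fcgr1 and Fcgr3 at 0.171 and 0.142.

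Ser5 peaks were found in 4 of the 5 genes in untreated cells and in all 5 after LPS, against 53.3% and 50.6% of all coding genes. Within 1000 bp of the record's start, where 48% of the coding genes had a peak in untreated cells and 45.9% after LPS, the members with a peak were Fcgr1, Fcgr2b and Fcer1g in untreated cells, joined by Fcgr4 after LPS. Fcgr3 had none there, but 2 peaks in each list within 1000 bp of its CCDS TSS. In untreated cells the gene body density was at least 2 times the input for Fcgr1, Fcgr3 and Fcer1g, and 37.6% of the coding genes passed this limit. After LPS it was so for Fcgr1, Fcgr2b and Fcer1g, with 32.8% of the coding genes past it. This list depended on the scaling. By the tags outside the Ser5 peaks Fcgr3 and Fcgr4 also passed the limit after LPS, at 2.67 and 2.56. That scaling raises the Ser5 to input ratio of every gene, and the share of coding genes past the limit under it was not computed. The input ratio of Fcer1g went from 14.7 (10.7 to 20.7) to 29.5 (21.6 to 41.3), and that of Fcgr1 from 7.98 (6.25 to 10.3) to 6.27 (4.87 to 8.18).

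Sites of Ser5 tags outside genes lay around all the receptor genes. Peaks of both lists that lay outside every annotated gene, coding or not, were merged when within 1000 bp. Over the 9561 such clusters tested, 17.5% were higher and 36.3% lower after LPS. Since the peaks themselves come from these libraries, the values of single clusters are given as a description. The study left out peaks close to the 3′ ends of genes, to remove most signal of Pol_II running on past them. That filter was not applied here. For clusters beyond a 3′ end, such run-on was not separated from sites of their own. Upstream of Fcgr1, centred 7412 bp from its TSS, a cluster (chr3:96104409-96106199) held 92 tags in untreated cells, 166 after LPS and 16 in the input, a ratio of 2.20 (1.69 to 2.87), while the gene itself stood at 0.786. Upstream of Fcgr4, centred 992 bp from its TSS, a cluster (chr1:172947787-172948332) held 9, 38 and 5 tags, a ratio of 5.15 (2.45 to 12.1), and part of it lies within the TSS window described above. Upstream of Fcgr2b, at 10954 bp, a cluster (chr1:172916980-172917445) held 4, 19 and 3 tags, a ratio of 5.79 (1.92 to 23.4). Beyond the 3′ end of Fcgr2b a cluster (chr1:172888375-172888838) held 0, 17 and 1 tags, so that the level after LPS was at least 6.91-fold higher when 3 tags are taken for the untreated library, and the exact interval began at 5.03.

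Beyond the 3′ end of Fcgr3 the opposite was seen. A cluster beside the gene (chr1:172979294-172981261) held 113, 13 and 8 tags (0.140, 0.0724 to 0.25), and one farther on towards Fcgr4 (chr1:172974666-172975100) held 44, 12 and 7 (0.332, 0.160 to 0.640). A small cluster beyond the 3′ end of Fcgr1 had 8, 3 and 2 tags. Beyond the 3′ end of Fcer1g the nearer cluster held 157, 207 and 15 tags (1.61, 1.30 to 1.99) and the farther one, next to Apoa2, held 51, 31 and 13 (0.741, 0.458 to 1.18). Of these 9 clusters 4 were thus higher and 3 lower by the rule of size. The clusters nearest the 3′ ends of Fcgr1, Fcgr2b, Fcgr3 and Fcer1g lie within the 3′ flanks described above. Their tags were counted there too, so these clusters and flanks are not separate observations.

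The 200 bases of highest Ser5 tag count after LPS in the clusters upstream of Fcgr1 and Fcgr4 are shown because these regions gained tags, one of them beside a gene whose own body did not. They are given along the strand of the gene, with GAGGAA matches in capitals, and neither held a GAS, ISRE or NF-kB match. The share of other 200-base stretches outside genes with such matches was not computed, so presence or absence of a match here is a description only. The stretch upstream of Fcgr1 held 19, 40 and 0 tags in untreated cells, after LPS and in the input, and that upstream of Fcgr4 held 2, 21 and 5.
Upstream of Fcgr1, chr3:96104735-96104934, minus strand: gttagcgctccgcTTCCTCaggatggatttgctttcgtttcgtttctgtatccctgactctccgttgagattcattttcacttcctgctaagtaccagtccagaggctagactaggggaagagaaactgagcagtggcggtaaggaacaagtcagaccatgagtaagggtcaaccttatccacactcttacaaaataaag
Upstream of Fcgr4, chr1:172948051-172948250, plus strand: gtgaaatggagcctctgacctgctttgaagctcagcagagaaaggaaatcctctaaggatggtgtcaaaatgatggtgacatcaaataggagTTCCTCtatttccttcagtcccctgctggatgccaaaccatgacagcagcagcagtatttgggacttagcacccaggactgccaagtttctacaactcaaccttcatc

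The receptor genes share sequence, which matters for tags placed by unique alignment. The longest identical run between any pair of the 5 genes was 113 bp of coding sequence in Fcgr2b (chr1:172896691-172896803) and Fcgr3 (chr1:172984184-172984296), and it is shown because a tag that lies inside it cannot be assigned to either gene.
Fcgr2b and Fcgr3, minus strand: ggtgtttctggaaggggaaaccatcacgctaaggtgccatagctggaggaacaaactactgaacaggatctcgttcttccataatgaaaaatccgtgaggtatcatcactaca

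In both genes this stretch held 0 tags in all 3 libraries. Between 7.45% (Fcer1g) and 23.6% (Fcgr3) of the positions of a gene began a 30-base sequence found elsewhere in the genome, and the tags there in the untreated Ser5 library, whose tags are 45 bases long, numbered 15, 2, 6, 2 and 1 for Fcgr1, Fcgr2b, Fcgr3, Fcgr4 and Fcer1g. Without tags whose first 30 bases recur within the 5 genes with up to 2 mismatches, the gene body ratios were 0.796, 2.07, 0.334, 1.93 and 2.01 in the same order. The Fvb/Hsd strain differs in sequence from the C57BL/6J strain of the reference genome, and the effect of this on single genes was not tested.

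The genes that act downstream of the Fc receptors, activating or inhibitory, were split. Of 20 matched genes of Fc receptor signalling, 2 were higher and 5 lower over the gene body, and their median ratio was 0.831. Over all coding genes tested the shares were 5.82% higher and 11.2% lower, and the median was 0.873. Among the higher genes, the adaptor Lcp2 (SLP-76) had 1013 tags in untreated and 2446 in LPS-treated cells (2.94, 2.73 to 3.17). On the lower side stood the membrane adaptor Lat2, with 1040 and 132 tags (0.155, 0.128 to 0.186), the kinase subunit Pik3cd (0.429), the ITAM pathway adaptor Card9 (0.448) and the actin regulator Was (0.495). The lowest was Inpp5d, which encodes SHIP1, the inositol phosphatase recruited by the inhibitory receptor, with 2398 and 225 tags and a ratio of 0.114 (0.0993 to 0.131). The phosphatase gene Ptpn6 and the genes Rac2 and Dok1, among the list's most densely occupied, had ratios of 0.903, 1.46 and 0.707.

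The relatives of Fcer1g were divided over the gene body. Among 7 genes of sister adaptors and of receptors that use the γ chain, 1 was higher and 2 lower, with a median of 0.812. The shares over all coding genes tested were 5.82% and 11.2%. At the TSS 2 of the 5 with enough tags were higher and none lower, with a median of 1.22. There the shares over all coding genes tested were 5.61% and 14.1%. Clec4e, which encodes Mincle, a γ-chain-coupled receptor for glycolipids, went from 613 to 4175 tags (8.30, 7.62 to 9.05), and the related receptor gene Clec4d had a ratio of 1.69 (1.56 to 1.83), an interval that overlaps that of Fcer1g. The sister adaptors were lower over the gene body, Tyrobp (DAP12) with 350 and 134 tags (0.467, 0.379 to 0.571) and Hcst (DAP10) with 333 and 93 (0.340, 0.267 to 0.430). The intervals of these adaptors do not overlap that of Fcer1g. Of 9 matched ITIM-bearing receptors none was higher and 2 were lower over the gene body, beside 5.82% and 11.2% of all coding genes tested. The lower ones were Cd300a (0.245, 0.179 to 0.330) and Cd300lf (0.465, 0.384 to 0.562), and the list median was 0.868. The most occupied ones, Sirpa, Lilrb4 and Lilrb3, had ratios of 0.666, 1.37 and 0.868. Fcgr2b, also an ITIM receptor, lay above the highest ratio in that list, and its interval of 1.63 to 2.61 lies above the 1.24 to 1.52 of Lilrb4.

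Other Fc receptors were mostly sparsely occupied. Of 11 with enough tags 1 was higher and 3 lower over the gene body, with a median of 0.645. The shares over all coding genes tested were 5.82% and 11.2%. Trim21, the cytosolic IgG receptor, had 131 and 405 tags (3.77, 3.09 to 4.62). Fcgrt, the neonatal Fc receptor that recycles IgG, had 113 and 40 (0.431, 0.293 to 0.624), Fcrls had 133 and 13 (0.119, 0.0618 to 0.211) and the low-affinity IgE receptor gene Fcer2a had 110 and 45 (0.499, 0.344 to 0.711). Fcer1a and Ms4a2, the other chains of the high-affinity IgE receptor that contains the γ chain, held 4 and 7 tags in untreated cells and 4 each after LPS, against 20 and 40 in the input.

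For scale, all 12 genes of the interferon response were higher, from Stat2 (2.19) to Rsad2 (90.6), with a median of 8.50, and so were all 10 LPS response genes, from Nfkbia (6.18) to Ccl5 (396), with a median of 24.8. Among the most occupied in untreated cells, Irf7, Socs1 and Irf1 had ratios of 2.62, 4.17 and 5.06, and Tnf and Ccl4 had 9.66 and 21.4. The ratios of Fcer1g, Fcgr2b and Fcgr4 lay below the smallest of either list, with intervals that overlap that of Stat2 (2.00 to 2.39).

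**Figure D4:**
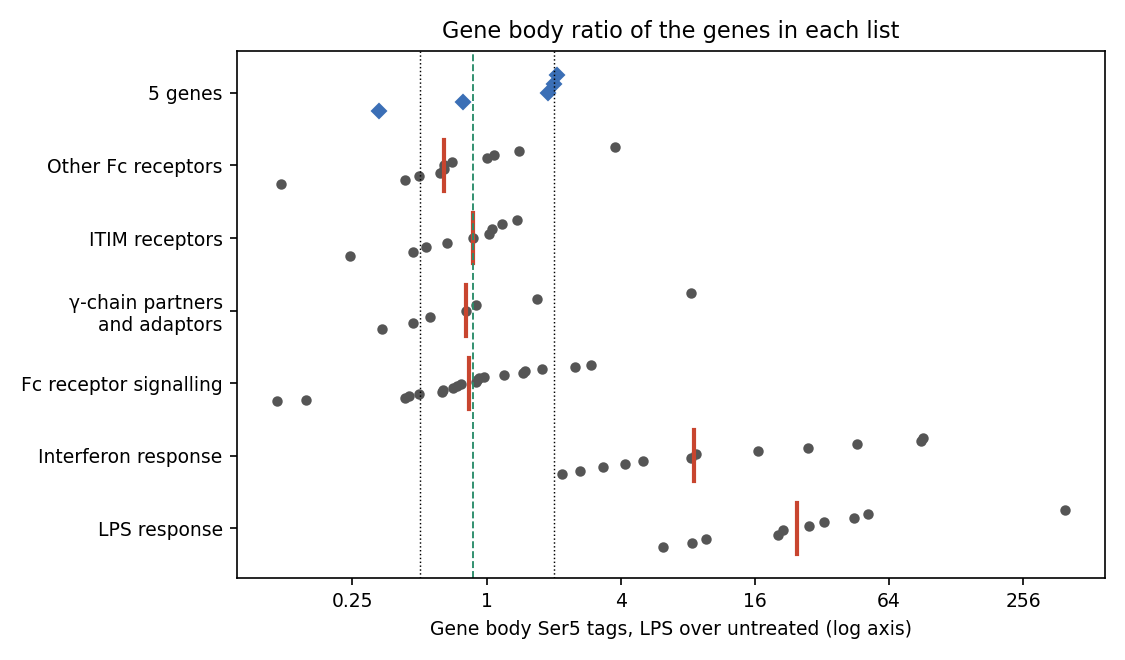
Gene body ratio of LPS to untreated (log axis) of each gene with at least 10 Ser5 tags in the 6 lists and of the 5 members (diamonds); red bars are list medians, dotted lines ratios of 0.5 and 2 and the dashed line the median of coding genes. The lists tied to Fc receptors have medians between 0.645 and 0.868, and the interferon and LPS response lists 8.50 and 24.8.

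The genes around the members differed from them in most cases. On the sides of the cluster of Fcgr2b, Fcgr4 and Fcgr3, Fcrla had 63 and 32 tags (0.619, 0.391 to 0.962), Fcrlb 23 and 19 (1.01, 0.518 to 1.93) and 1700009P17Rik 196 and 138 (0.858, 0.685 to 1.07). Around Fcgr1 lie genes of the Hist2 histone cluster, near-identical copies of one another whose counts are uncertain, and the 4 of 6 with enough tags had ratios between 0.459 (Hist2h3b) and 0.703 (Hist2h3c1). Near Fcer1g, Pcp4l1 was lower (0.337, 0.252 to 0.445) and Adamts4 higher on 20 and 38 tags (2.32, 1.31 to 4.2), and Nr1i3, Tomm40l, B4galt3, Ppox, Usp21 and Apoa2 ranged from 0.663 to 1.63.

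Genes with a like pattern were sought among coding genes with at least 50 Ser5 tags, by the distance between log2 gene body densities in the 3 libraries. Closest to Fcgr1 was Tmpo, at 6.84, 5.26 and 0.869 TPM per kb in untreated cells, after LPS and in the input, followed by Eme2 and Fam84b. Closest to Fcgr3 were 2010317E24Rik, Pwwp2b and Ttyh2, with ratios of 0.351, 0.308 and 0.349. Closest to Fcgr2b were Tgm2, Lrrfip2 and Xcr1, with ratios of 2.02, 1.77 and 2.25. Closest to Fcgr4 were Sipa1l1, Sh3kbp1 and Dock4, with ratios of 2.03, 1.83 and 2.11. The genes nearest to Fcer1g lay farther off. Fkbp2, Ly6e and Cdkn1a were at distances of 0.318, 0.370 and 0.397, with ratios of 1.49, 1.52 and 1.41, whereas the gene nearest to Fcgr1 was at 0.0376.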

How the data were processed

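Ser5 Pol_II ChIP-Seq and input tags came from 1 library per condition. As the study's methods describe, the authors cut 76-base reads back from the 3′ side, placed them on mm9 with Bowtie (unique matches, up to 2 mismatches) and ran MACS for either Ser5 library with the input as control at p 1e-05; tool versions are not given in the sources used here. The deposited tags are 45 bases long in the untreated Ser5 library, 30 after LPS and 36 in the input, the reverse of the lengths the methods name for the Ser5 libraries. Groups follow the labels, and all 10 LPS response genes were higher in the library labelled LPS. The deposited peak score is minus 10 times the log10 of p and reaches at most 3100. Longer tags can be placed in more repeated sequence.

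Tag starts in the files count from 0, so 1 was added. Duplicates were kept. Tags were counted by 5′ end on chromosomes 1 to 19 and X over GENCODE M1 gene records and scaled to 1000000 tags used. Counts have exact Poisson intervals, ratios exact intervals conditional on the sum, shares Wilson intervals, all at 95%. For calls a count of 0 was set to 0.5 tags. The members and lists were chosen with earlier results of these data known. Genes named are the members, coding genes within 50 kb, list genes past the rule of size or with the 3 highest untreated densities, and the 3 nearest in log2 density (0.01 added); other names and the loci outside genes were chosen after their values were seen. Syk and Pirb were not matched by symbol. Some items named by this rule are not reported here. Alternatives are given in the closing section. Python 3.11.15, numpy 2.4.6, pandas 2.3.3, scipy 1.17.1, numba 0.67.0 and matplotlib 3.10.9 were used, and counting and intervals were first tested on simulated data.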

Additional observations from a re-analysis of the deposited data

How the results depend on the processing

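No paired analysis was possible because there is 1 library per condition, and for the same reason no replicate could be left out. Of 133 alternative values 116 stayed within the interval of the main value, or within 1.5 times for counts, and none reversed a call. Counting 1 tag per position and strand, moving tags 75 bp downstream or keeping only tags unique in their first 30 bases moved no value out of its interval. Scaling by the tags that lie outside both peak lists (50.2%, 46.7% and 95.5% of the tags of untreated Ser5, LPS Ser5 and input) raised the Ser5 to input ratios of Fcgr1, Fcgr2b, Fcgr3, Fcgr4 and Fcer1g to 15.2, 1.96, 7.55, 1.27 and 28.0 in untreated cells and to 12.8, 4.36, 2.67, 2.56 and 60.3 after LPS, so that Fcgr2b in untreated cells and Fcgr3 and Fcgr4 after LPS then stood above the input. Subtracting the input gave gene body ratios of 34.1 for Fcgr2b, whose untreated body is at the input level when scaled to all tags, and 0.103 for Fcgr3, and gave none for Fcgr4, which lay below the input in untreated cells. Over the CCDS span, added after seeing the data, the Ser5 to input ratio of Fcgr3 was 6.31 in untreated cells and 2.02 after LPS. With 500 bp on each side the TSS ratio of Fcgr1 was 0.989. At p of at most 1e-10, 3 members had a peak after LPS in place of 5. With at least 50 tags, 3.73% of the coding genes in place of 5.61% were higher at the TSS, an alternative added after seeing the data.

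The rule of size was crossed by Fcer1g, which reached 2.15 when scaled by those tags, 2.17 without the first 1000 bp, 2.07 with the input subtracted and 2.01 without near matches among the members, and by Fcgr4 at 2.02 when scaled by those tags. Fcgr2b stayed at 2.01 or above and Fcgr3 at 0.354 or below in every gene body alternative run. Differences between conditions cannot be told apart from differences between these single libraries, and counts under about 50 tags, as on Fcgr4, leave intervals more than 2 times wide.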
